A study of Bos taurus with 6 samples.

Results

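The 10 genes described here are immediate early genes: FOS, FOSB and FOSL2 of the FOS family, JUN, JUNB and JUND of the JUN family, and EGR1, IER2, IER3 and ATF3. They were taken by gene symbol, or an unambiguous synonym, from the annotation of a bovine oligonucleotide array (EMBV3), and 15 of its 43794 probes carry such a symbol. Of 15216 genes named on the array these are 10, and 9 of them had a brightest probe above background, as did 9000 genes in all.

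The question of the study was the effect of maternal age on granulosa cells, which line the follicle, shortly before ovulation. RNA came from 3 aged Hereford cows, described as multiparous (numbers 13, 110 and 126), and 3 young Hereford cows, described as nulliparous heifers (numbers 11, 7 and 184). All 6 animals had their cycle controlled with prostaglandin and received 25 mg of luteinizing hormone (LH) by injection on day 6, and the dominant follicle was sampled on day 7, 24 h later. On each 2-colour array 1 aged cow was set against 1 young cow, in the pairs 13 with 11, 110 with 7 and 126 with 184, and each pair was run on 2 arrays with the dyes exchanged. The cells were spun out of follicular fluid, with no sort mentioned, and their RNA was amplified linearly before labelling. The protocol allows for aspiration of the follicle or surgery, and for freezing or a preservative, and does not tie freezing or preservative to a cow. The protocol speaks of mother and daughter pairs, but the labels do not say that the 2 animals of an array are such a pair, and ages in years are not given in the sources used here. No sample from before the LH injection was analysed here, so the values compare cows at a single time after it.

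Immediate early genes are transcribed within minutes of a stimulus, without new protein synthesis, and their messages are mostly short-lived. FOS and JUN proteins pair through a leucine zipper to form AP-1, a transcription factor that binds DNA as a dimer. FOS proteins need a JUN partner to bind, whereas JUN proteins can also pair with each other, and ATF3 belongs to a related zipper family. In granulosa cells of rodents, the LH surge turns on FOS, JUN and EGR1 through cyclic AMP and MAP kinase signalling within the first hours. In the rat, JUND and FOSL2 are the AP-1 members known to persist as the cells luteinize. Immediate early genes are also known to respond to tissue handling and cell dissociation.

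Values come from spot intensities, which were background-corrected and normalised within each array. A level is the log2 signal of a cow's channel averaged over both dye orientations, and it compares cows for a given probe but not one probe with another. Probes above background on no channel had a median level of 8.21 and a 95th percentile of 8.31. A ratio is log2(aged / young), so that negative values are lower in aged cows, and n = 3 pairs for every mean ratio. A probe was tested if it exceeded the mean + 2 SD of 153 negative control spots on all 6 arrays in the channels of either age group. The share of probes above this limit ran from 49.4% to 71.9% per channel, and the negative control spots averaged between 199.8 and 400.5 units. The ratios of dye-swapped arrays correlated across probes, which are not independent replicates, with Pearson r = 0.847 for aged cow 13, 0.844 for aged cow 110 and 0.614 for aged cow 126.

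The cells carried markers of granulosa and of other cell types, unequally between cows. INHA, a subunit of inhibin made by granulosa cells, had levels of 15.11, 15.10 and 14.87 in aged cows 13, 110 and 126, against 10.48, 15.05 and 15.17 in young cows 11, 7 and 184. EPCAM, an epithelial adhesion protein, had levels of 8.23, 8.80 and 9.26 in the aged cows, against 15.0, 12.98 and 9.78 in the young cows. The sample of young cow 11 thus stood apart from the other 5, with low INHA and high EPCAM, and that of young cow 7 combined high INHA with high EPCAM. How low INHA was in young cow 11 is imprecise. The INHA ratio of its pair was 6.83 with aged cow 13 in Cy5 and 2.43 with it in Cy3. INHA exceeded the control limit on 5 of 6 channels of young cows. Of 12 epithelial markers 9 were tested, and their summed signal ran from 4537 to 16013 in aged cows and from 12260 to 128362 in young cows. Of 16 granulosa markers 10 were tested, with a summed signal of 81051 to 137769 in aged cows and 17152 to 130971 in young cows. FOXL2, a transcription factor of granulosa cells, exceeded the control limit on 1 of 6 channels of aged cows and 0 of 6 of young cows. FSHR, LHCGR and CYP19A1, the receptors for both gonadotrophins and the oestrogen-making aromatase, each failed the limit on at least 1 channel of both age groups, although CYP19A1 had a level of 13.03 in aged cow 13. In such bulk samples, fewer cells of a type and less RNA per cell cannot be told apart.

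The 10 genes did not move as a unit between aged and young cows. By limma with Benjamini-Hochberg adjustment, 0 of 20787 probes passed the threshold of 0.05 (0% called), and the adjusted p of the 9 tested members ran from 0.463 to 0.971. An unadjusted p under 0.05 was reached by 2172 probes, or 10.4%, and by 1040 of 9000 genes, or 11.6%. Among the members, FOSB and IER2 were at an unadjusted p under 0.05, both lower in aged cows. A count of 2 in 9 is too small to be set apart from that background. The mean ratio was above 0 for FOSL2 and JUNB and below 0 for the other 7 tested members, with a median of -0.55, against 0.06 over all genes tested. JUNB was tested through its aged channels, since only 2 of 6 channels of young cows exceeded the control limit. FOSB, JUND and IER2 were lower in the aged cow of all 3 pairs and 0 members were higher in all 3, where 38.7% of genes had the same direction in all 3 pairs.

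**Figure D1:**
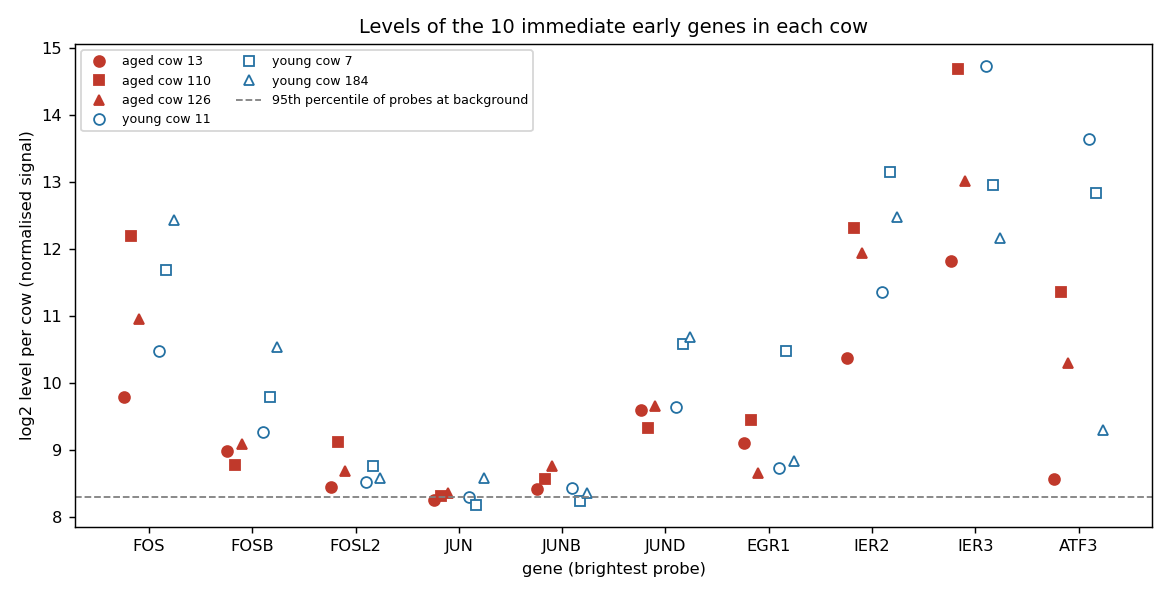
Level per cow (y axis, log2 normalised signal) of the brightest probe of each gene (x axis), with filled red symbols for the 3 aged cows, open blue symbols for the 3 young cows and the same shape for cows of a pair. The dashed line marks the level of 8.31, the 95th percentile of probes at background. ATF3 spans the widest range, the FOSB levels of aged and young cows do not overlap, and JUN and JUNB lie near the line.

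FOS, the founding member of its family and a partner for every JUN protein, was read by 2 probes. The brighter (EMBV3_35481) had levels of 9.80, 12.20 and 10.95 in aged cows 13, 110 and 126, against 10.49, 11.70 and 12.43 in young cows 11, 7 and 184. The highest level was in young cow 184 and the next in aged cow 110, so the groups overlapped over most of their range. The 3 pairs gave ratios of -0.69, 0.50 and -1.48, with a mean of -0.55 ± 0.99 (SD, n = 3, adjusted p = 0.692 by limma). The 95% interval of the mean ratio ran from -2.05 to 0.95. Without the pair of aged cow 110 the mean was -1.08, and without that of aged cow 126 it was -0.09. By this probe alone, FOS was still well above background in all 6 cows at 24 h, with a 6.19-fold range between the lowest and the highest. Its order between cows did not follow age.

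FOSB, which can be spliced to a shorter form that lacks the activating end of the protein, had levels of 8.98, 8.78 and 9.10 in aged cows 13, 110 and 126. Its levels were 9.28, 9.79 and 10.55 in young cows 11, 7 and 184. All 3 aged cows were below all 3 young cows, which FOSB alone of the 9 tested members showed and which held for 18.2% of genes tested. The gap between the highest aged cow and the lowest young cow was small beside the spread of the young cows. The pair ratios were -0.29, -1.0 and -1.45, with a mean of -0.92 ± 0.58 (SD, n = 3, unadjusted p = 0.0462 and adjusted p = 0.471 by limma). The ratio was negative on 6 of 6 arrays, and the 95% interval of the mean ran from -1.80 to -0.03. Without the pair that holds young cow 11, whose markers stood apart, the mean was -1.23 (unadjusted p = 0.0181 by limma). The unadjusted p was 0.159 without the pair of aged cow 110 and young cow 7, and 0.138 without the pair of aged cow 126.

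FOSL2, also called FRA2, is the FOS member that in the rat persists in luteinizing cells. It had levels of 8.45, 9.13 and 8.70 in aged cows 13, 110 and 126, against 8.52, 8.77 and 8.59 in young cows 11, 7 and 184. These levels lie close to background and span 0.68 on the log2 scale. The mean ratio was 0.13 ± 0.21 (SD, n = 3, adjusted p = 0.690 by limma), with a 95% interval from -0.22 to 0.49. The interval leaves out a difference of 1 log2 unit in either direction for this probe, although the signal near background limits how large a ratio could appear.

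In the JUN family, JUND was the only member with clear signal on every channel. JUND is expressed in many resting cells and is the JUN protein least tied to a stimulus. Its levels were 9.60, 9.33 and 9.66 in aged cows 13, 110 and 126, against 9.65, 10.59 and 10.69 in young cows 11, 7 and 184. The 3 aged cows and young cow 11 lay close together, and young cows 7 and 184 stood above them by about as much as each other. In the order of the pairs, ratios were -0.05, -1.26 and -1.03, with a mean of -0.78 ± 0.64 (SD, n = 3, unadjusted p = 0.0853 and adjusted p = 0.517 by limma). The pair of aged cow 13 showed no difference beyond the gap between its 2 arrays, which had ratios of 0.06 and -0.16. Without that pair the mean ratio was -1.14, with an unadjusted p of 0.00865 by limma. The mean was -0.54 without the pair of aged cow 110, -0.65 without that of aged cow 126 and -0.51 with median centring, with unadjusted p of 0.259, 0.284 and 0.110 by limma. With the 6 arrays kept separate and the cow pair as a block, the unadjusted p was 0.0330 and the adjusted p 0.342.

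JUN, the classical partner of FOS, was not tested, because its only probe exceeded the control limit on 2 of 6 channels in either age group. Its levels were 8.26, 8.32 and 8.37 in the aged cows, against 8.30, 8.19 and 8.59 in the young cows. No order between cows can be read from values this close to background. JUNB, which can restrain JUN activity, had levels of 8.43, 8.58 and 8.76 in aged cows 13, 110 and 126, against 8.43, 8.25 and 8.36 in young cows 11, 7 and 184. Its mean ratio was 0.24 ± 0.22 (SD, n = 3, adjusted p = 0.556 by limma). On the arrays of aged cow 126 the ratio was -0.10 with the aged cow in Cy5 and 0.91 with it in Cy3, a gap larger than the mean ratio of this dim probe.

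EGR1, a zinc finger factor that LH induces quickly in rodent granulosa cells, had levels of 9.11, 9.45 and 8.67 in aged cows 13, 110 and 126. Its levels were 8.73, 10.48 and 8.84 in young cows 11, 7 and 184. Young cow 7 was the highest by more than 1 log2 unit, and the other 5 cows lay within a narrower range in which the ages mixed. The pair ratios were 0.38, -1.02 and -0.17, with a mean of -0.27 ± 0.71 (SD, n = 3, adjusted p = 0.759 by limma). The dye-swapped arrays agreed closely, with ratios of 0.40 and 0.36 for aged cow 13, -0.90 and -1.14 for aged cow 110, and -0.11 and -0.23 for aged cow 126. Without the pair of aged cow 110 the mean ratio was 0.11, of opposite sign.

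IER2, a nuclear protein of the early response, had the smallest p among the members. Its levels were 10.37, 12.32 and 11.95 in aged cows 13, 110 and 126, against 11.35, 13.15 and 12.48 in young cows 11, 7 and 184. The groups overlapped, but each aged cow was below the young cow on its own arrays. By pair, the ratios were -0.98, -0.83 and -0.53, with a mean of -0.78 ± 0.23 (SD, n = 3, unadjusted p = 0.00711 and adjusted p = 0.463 by limma), which corresponds to 0.583 of the young level. The ratio was negative on 6 of 6 arrays, from -1.28 to -0.37, and the 95% interval of the mean ran from -1.16 to -0.40. In each pair it was more negative with the aged cow in Cy3 than in Cy5. The mean was -0.68 without the pair that holds young cow 11 and -0.76 without the pair that holds young cow 7, with unadjusted p of 0.0327 and 0.0497 by limma. With each array centred on its median instead of by loess, the mean was -0.51 with an unadjusted p of 0.104.

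The spread of the IER2 ratio between pairs was smaller than that of any other member lower in all 3 pairs, while the levels of the cows spanned 6.83-fold. Both cows of the pair 13 and 11 had the lowest level of their age group, and both cows of the pair 110 and 7 the highest. A comparison between unpaired groups would therefore have carried that spread between pairs. Cows of different pairs shared no array, so this spread can also hold differences between arrays.

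IER3, a small membrane protein that is induced by stress and growth signals and affects cell survival, read 3487 to 28466 raw units in aged cows and 3478 to 28165 in young cows. Its levels were 11.83, 14.68 and 13.02 in aged cows 13, 110 and 126, against 14.73, 12.95 and 12.16 in young cows 11, 7 and 184. Young cow 11 and aged cow 110 had nearly the same high level, and aged cow 13 had the lowest. The pair ratios were -2.90, 1.73 and 0.86, which differ in sign between pairs and by far more than between dye-swapped arrays (at most 0.30 apart). The mean of -0.11 ± 2.46 (SD, n = 3, adjusted p = 0.971 by limma) describes no pair. Its 95% interval ran from -3.80 to 3.59, so a large difference in either direction was within the error.

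ATF3, a stress-induced zipper protein that represses transcription as a homodimer, varied most between cows of all 10 genes. Its levels were 8.58, 11.36 and 10.30 in aged cows 13, 110 and 126, against 13.64, 12.84 and 9.30 in young cows 11, 7 and 184. The lowest cow, aged cow 13, was near background, and the highest, young cow 11 on the same arrays, was 33.5-fold above it. The 2 arrays of that pair read 345 and 421 raw units for the aged cow and 14715 and 12658 units for the young cow. The 3 pairs gave ratios of -5.06, -1.49 and 1.0, with a mean of -1.85 ± 3.05 (SD, n = 3, adjusted p = 0.674 by limma). The 95% interval of the mean ran from -6.43 to 2.73. Without the pair of aged cow 13 the mean was -0.24, and without the pair of aged cow 126 it was -3.28.

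**Figure D2:**
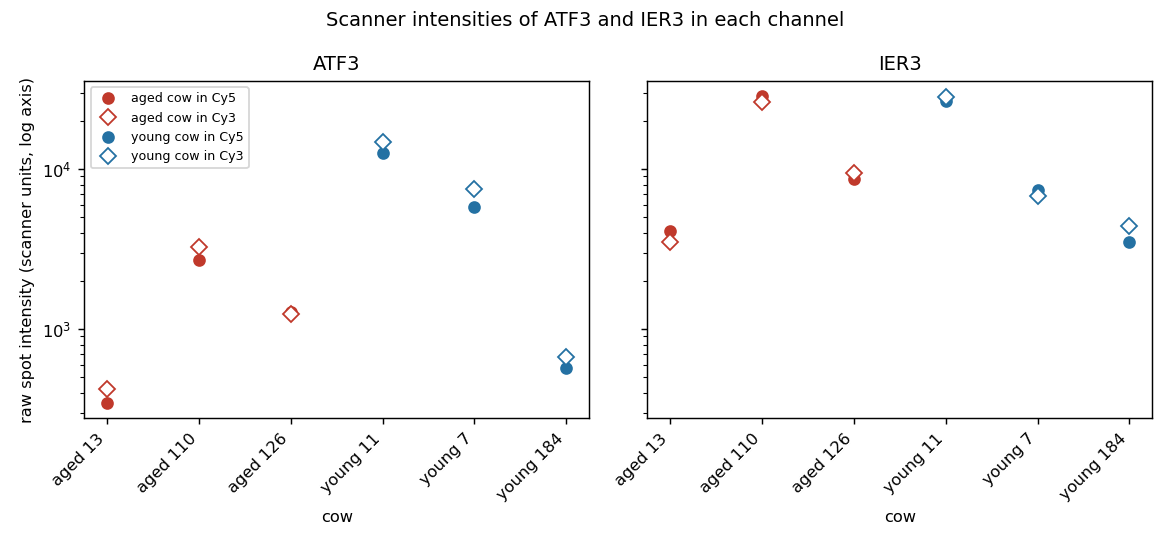
Raw spot intensity (y axis, scanner units, log axis) of ATF3 and IER3 in each cow (x axis, aged cows left of young cows), with filled circles for Cy5 and open diamonds for Cy3. The readings of a cow in both dyes lie close together. Cows of the same age lie far apart, as for ATF3 between aged cows 13 and 110 and between young cows 11 and 184.

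Among the tested members, for ATF3, IER3, EGR1, FOS, FOSB, FOSL2 and JUND the pairs of cows differed by more than dye-swapped arrays of the same cows did. For ATF3 the ratios of the 2 arrays were -5.06 and -5.07 for aged cow 13, -1.69 and -1.28 for aged cow 110, and 0.93 and 1.07 for aged cow 126. For FOS they were further apart, at -0.19 and -1.19 for aged cow 13, where the more negative value was from the array with the aged cow in Cy3. For IER2 the largest gap between dye-swapped arrays was 0.60, above the range of 0.45 between the 3 pairs. The SD between pairs was 3.05 for ATF3 and 2.46 for IER3, against a median of 0.34 over all genes tested. By slide numbers read from the scans, aged cows 13 and 110 and their partners were run on a common slide, and aged cow 126 on others. On the common slide alone the mean ratio was -0.65 for FOSB, -0.65 for JUND and -0.90 for IER2. Of the 9 tested members, 7 had levels that spanned at least 1 log2 unit over the 6 cows (all but FOSL2 and JUNB), which held for 42.4% of genes tested.

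**Figure D3:**
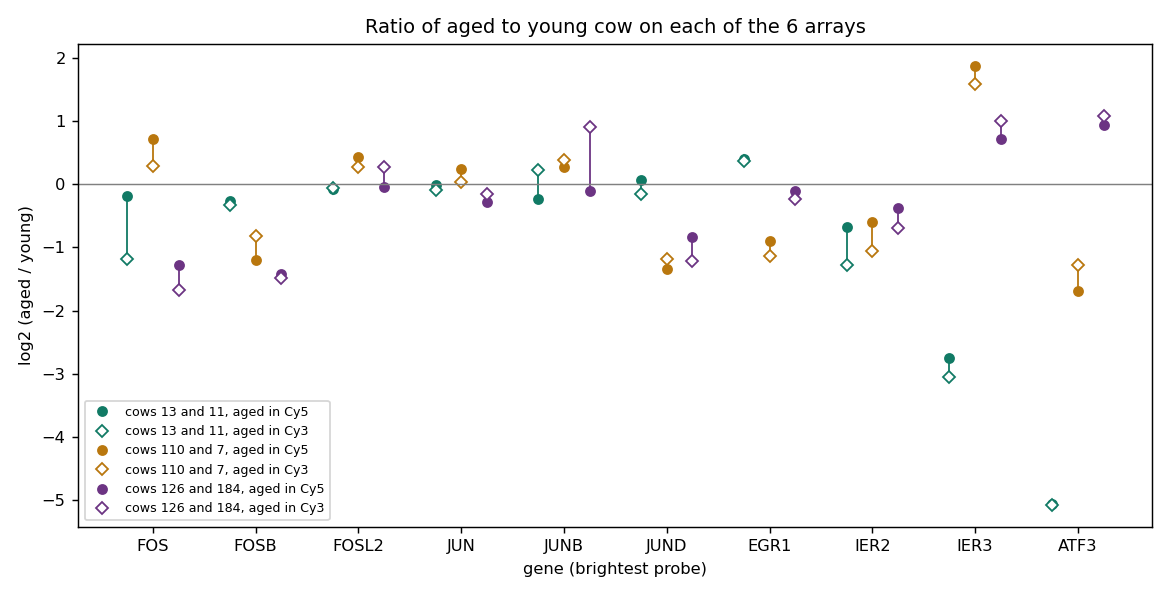
Log2 ratio of aged to young cow (y axis) on each of the 6 arrays for the brightest probe of each gene (x axis), with 1 colour per pair of cows, filled circles where the aged cow was in Cy5 and open diamonds where it was in Cy3. All 6 points of FOSB and IER2 lie below 0, whereas the pairs of IER3 and ATF3 lie on both sides of 0 with little distance between dye-swapped arrays.

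Where a gene had several probes, the bright and the dim ones gave different ratios. The second FOS probe (EMBV3_25127) had levels between 8.47 and 8.57 in all 6 cows and a mean ratio of 0.03 ± 0.03 (SD, n = 3), while the bright FOS probe varied 6.19-fold. Though dim, this second probe exceeded the control limit on all 12 channels and was tested (adjusted p = 0.816 by limma). The second FOSL2 probe was not tested and had a mean ratio of -0.02, against 0.13 for the bright one. The other 2 FOSB probes were not tested and had mean ratios of -0.01 and 0.13, against -0.92 for the bright one. The second IER2 probe, also not tested, had a mean ratio of -0.02 ± 0.10 (SD, n = 3), against -0.78 for the bright one. Its ratio was negative on the 3 arrays with the aged cow in Cy5 and positive on the 3 with it in Cy3, which leaves nothing to read in the mean. The lower values of FOSB and IER2 in aged cows therefore each rest on 1 probe. The annotation used here does not say which part of the transcript a probe reads, and a probe at background bears on the gene only as far as it can detect it.

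**Figure D4:**
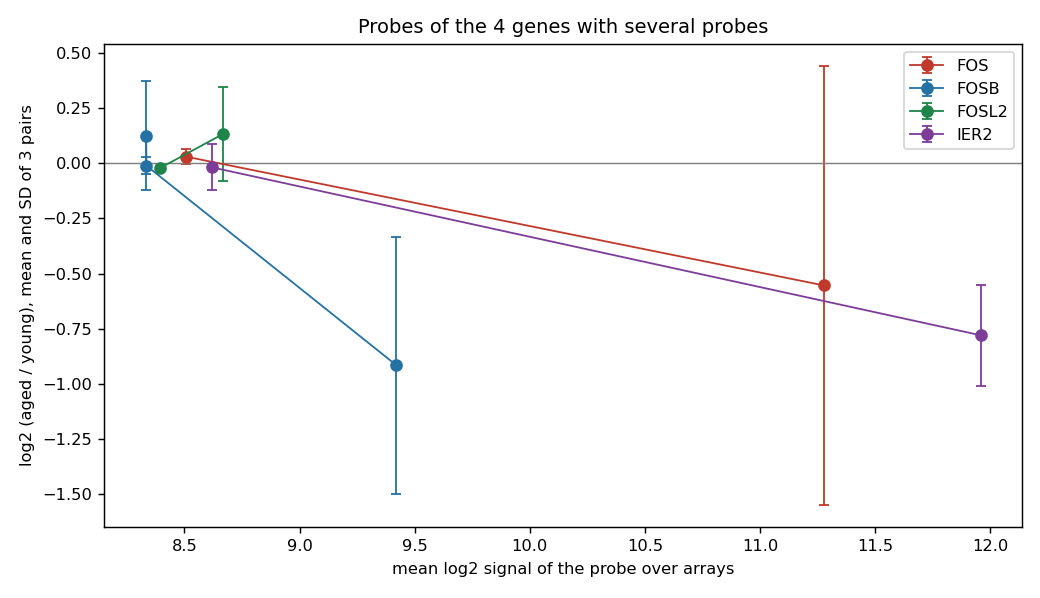
Mean log2 ratio of aged to young cows with its SD over 3 pairs (y axis) against the mean log2 signal of the probe over arrays (x axis), for the 4 genes with several probes, whose probes are joined by a line. Probes with a mean signal under 9 lie near a ratio of 0, and the brightest probes of FOS, FOSB and IER2 lie below 0.

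The values beside which ATF3 was high or low include markers of other cells. KRT19, an epithelial keratin, had levels of 9.20, 9.45 and 12.16 in aged cows 13, 110 and 126, against 14.69, 15.37 and 11.53 in young cows 11, 7 and 184. ATF3 and both epithelial markers were thus highest in young cows 11 and 7, and ATF3 and EPCAM lowest in aged cow 13. The ATF3 ratio was negative in the 2 pairs with large negative EPCAM ratios (-6.77 and -4.18) and positive in the third (EPCAM -0.53). Between these ends the order was reversed. In aged cow 110, aged cow 126 and young cow 184, ATF3 fell (11.36, 10.30 and 9.30) while EPCAM rose (8.80, 9.26 and 9.78). IER3 did not keep to the order of EPCAM either, since aged cow 110 had a high IER3 level. The part of these cells in the ATF3 ratio was not tested.

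Markers of blood, of the follicle wall and of granulosa cells lay beside FOSB and IER2. PTPRC, the leukocyte antigen CD45, had levels of 9.88, 11.32 and 12.03 in the aged cows, against 10.31, 12.54 and 12.33 in the young cows, and was lower in the aged cow of each pair. TYROBP, a signalling adaptor of myeloid cells, was highest in aged cow 126, at 13.87. The other 6 tested leukocyte markers were not lower in all 3 pairs, AIF1 and CD163 were higher in all 3, and the median of the list was 0.44. AIF1 and CD163 were tested through their aged channels, since 5 and 4 of 6 channels of young cows exceeded the control limit. By pair the list medians were -0.25, -0.11 and 1.34, with the large value in the pair of aged cow 126. Over 7 tested of 13 leukocyte markers the summed signal was 2933 to 27277 in aged cows and 3587 to 9854 in young cows. HBB, the haemoglobin chain of red cells, had levels of 8.41, 8.52 and 11.24 in aged cows, against 9.22, 9.92 and 12.57 in young cows, lower in the aged cow of each pair as FOSB and IER2 were. The other tested erythrocyte markers did not show this, with pair ratios of -2.24, 0.01 and -0.13 for SLC4A1 and a mean ratio of -0.03 for AHSP. The 3 tested of 5 erythrocyte markers summed to 1053 to 3160 in aged cows and 1672 to 6857 in young cows. The 7 tested of 8 theca markers summed to 6321 to 9898 in aged cows and 10529 to 15260 in young cows, but this difference rests on few genes. ALDH1A1, a retinaldehyde dehydrogenase, gave most of the sum in young cows 11 and 7 and had pair ratios of -4.37, -4.43 and 0.43. Without it, an alternative chosen after seeing the data, the sums were 8986, 5971 and 9033 in aged cows 13, 110 and 126, against 3016, 3448 and 14617 in young cows 11, 7 and 184, and overlapped. LUM, a matrix proteoglycan, had pair ratios of 4.43, 2.11 and -1.64, with a mean of 1.63 ± 3.07 (SD, n = 3). It was tested through its aged channels, since 4 of 6 channels of young cows exceeded the control limit. CYP17A1, the androgen-making enzyme of theca, exceeded the control limit on 3 of 6 channels in either age group. The 3 tested of 8 endothelial markers summed to 1065 to 1103 in aged cows and 1066 to 1189 in young cows, with KDR above background on 0 channels. NR5A2, a nuclear receptor of the granulosa list, was also lower in the aged cow of each pair, with ratios of -0.54, -1.33 and -1.86. Of 10 tested granulosa markers no other was lower in all 3 pairs, 3 were higher in all 3, and the list median was 1.45. By pair the list medians were 3.47, 0.13 and 0.03, with the large value in the pair that holds young cow 11. INHA and several others of the list, some of them higher in all 3 pairs, were tested only through their aged channels. Among all genes tested, 1453 of 9000 were lower in all 3 pairs. The part of these cells in the FOSB and IER2 ratios was not tested.

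**Figure D5:**
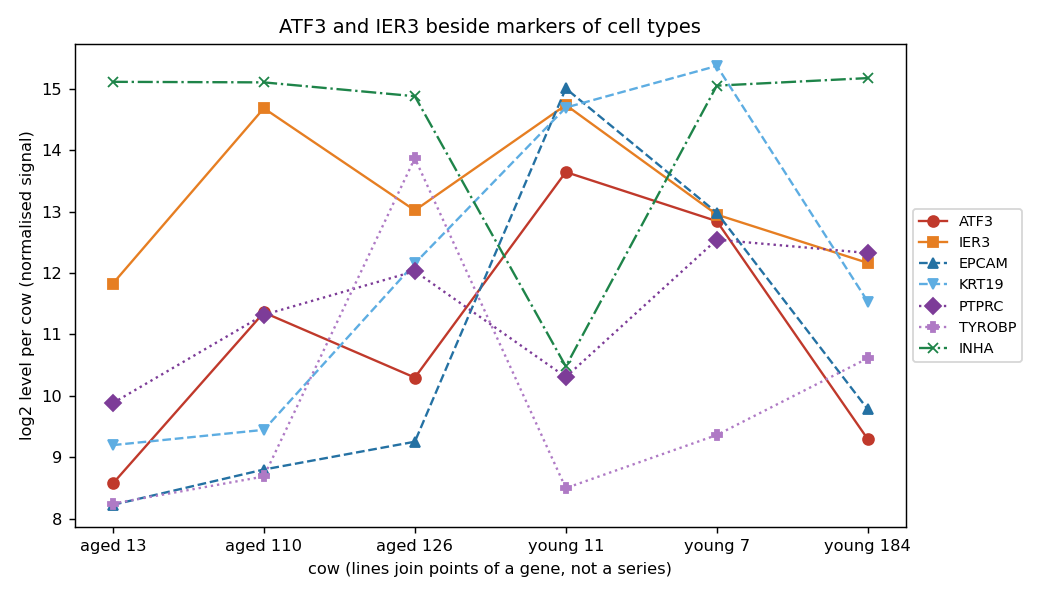
Level per cow (y axis, log2 normalised signal) of ATF3 and IER3 beside EPCAM and KRT19 (epithelial), PTPRC and TYROBP (leukocyte) and INHA (granulosa), with aged cows left of young cows on the x axis. ATF3, EPCAM and KRT19 are high together in young cows 11 and 7, while INHA is low in young cow 11 and TYROBP high in aged cow 126.

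The genes with the most similar profiles were found for the 7 members whose levels spanned at least 1 log2 unit, by the root mean square (RMS) difference between profiles of 6 levels, each centred on its own mean, over 8999 other genes. The closest to FOSB were SNW1 (RMS 0.17), SLAMF6 (0.20) and JUND (0.21), and JUND had FOSB among its closest, after AFF1 (0.16), KCNJ11 (0.18) and TWF2 (0.19). FOSB and JUND were therefore closer to each other than either was to nearly all other genes, whose median distance was 0.69 for FOSB and 0.63 for JUND. FOS and IER2 also lay near each other at an RMS of 0.49, where IER2 ranked at 10 among the genes closest to FOS and FOS at 59 among those closest to IER2. The closest to FOS were EML2 (0.36), MAGEH1 (0.41) and DAB2 (0.43). IER2 itself was closest to IFITM3 (0.31), RENBP (0.33) and LOC777594 (0.33). These likenesses describe 6 cows and share the same arrays, so they are no test.

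EGR1 had no other member near it, and its closest profiles were those of DNAJC6 (RMS 0.16), MBP (0.18) and AXIN1 (0.19), each highest in young cow 7. IER3 was closest to NET1 (0.33), ITCH (0.56) and TLE3 (0.57). ATF3 was closest to QSOX1 (0.50), SYTL2 (0.66) and AHNAK (0.71). QSOX1 had levels of 10.71, 13.21 and 12.98 in aged cows 13, 110 and 126, against 15.26, 14.48 and 12.21 in young cows 11, 7 and 184, which repeats the ATF3 order at both ends. IER3 and ATF3, both stress-induced, were at an RMS of 1.20, with IER3 ranked at 113 among the genes closest to ATF3 but ATF3 at 5753 among those closest to IER3, whose median distance to all genes was 1.15.

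Among 17 other genes of zipper proteins related to FOS and JUN, 7 were tested. Of these, 1 was higher in aged cows at an unadjusted p under 0.05 and 0 were lower, with a list median of 0.14. MAFG, a small MAF protein, had a mean ratio of 0.37 ± 0.11 (SD, n = 3, adjusted p = 0.463 by limma). ATF1 and ATF2, which respond to cyclic AMP and stress kinases, had mean ratios of 0.68 ± 0.72 and 0.43 ± 0.47 (SD, n = 3 each). Both were higher in the aged cow of all 3 pairs, which held for 2030 of 9000 genes tested. FOSL1, the remaining FOS family gene, was not tested, with pair ratios of 0.15, 1.59 and 0.19. EGR3, a relative of EGR1, was at background, and the tested NAB corepressors NAB1 and NAB2 had mean ratios of 0.10 and -0.09.

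Of 28 other immediate early genes, 22 were tested, of which 2 were higher and 1 lower in aged cows by an unadjusted p under 0.05, with a list median of -0.19. NR4A1, an orphan nuclear receptor, had levels of 12.97, 14.27 and 11.75 in aged cows 13, 110 and 126, against 10.43, 12.14 and 11.29 in young cows 11, 7 and 184. Its mean ratio was 1.71 ± 1.10 (SD, n = 3, adjusted p = 0.471 by limma). BTG2, which restrains cell division, had a mean ratio of 0.82 ± 0.53, and ZFP36, which destabilises short-lived messages, one of -0.27 ± 0.08. CCN1, a matrix protein, had a mean ratio of -1.04 ± 0.70. Rapidly induced genes outside the 10 thus had ratios on both sides of 0.

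Of 25 kinases, cofactors and factors upstream of immediate early genes, 13 were tested, with 0 higher and 2 lower in aged cows at an unadjusted p under 0.05 and a list median of 0.15. MAPK8, the kinase JNK1 that phosphorylates JUN, had levels of 11.69, 11.47 and 11.41 in aged cows 13, 110 and 126, against 12.26, 12.90 and 13.54 in young cows 11, 7 and 184. All 3 aged cows were below all 3 young cows, as for FOSB, and levels of the age groups did not overlap for 18.2% of genes tested. Its mean ratio was -1.38 ± 0.78 (SD, n = 3, adjusted p = 0.463 by limma). ELK1, a partner of the serum response factor at the FOS promoter, had a mean ratio of -0.92 ± 0.44 (adjusted p = 0.463 by limma). MAPK9, which is JNK2, and MAP2K4, a kinase that activates JNK, had mean ratios of 0.21 and 0.55. Both were higher in the aged cow of all 3 pairs, as were 2030 of 9000 genes tested. MAPK9 lay close to background and was tested through its aged channels, since only 2 of 6 channels of young cows exceeded the control limit. SRF, CREB1 and MAPK3 were near background and not tested.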

How the data were processed

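Two-colour arrays measured RNA of 3 aged and 3 young cows on 6 arrays. The authors deposited, per the file headers, the linear intensity of every spot and of its surrounding background (mean and median), and another column that counts ignored cells, which marks spots the image software excluded. They also deposited a table on a log2 scale, for which the submitters' processing notes name limma. Its columns were found to run as aged over young (r between 0.819 and 0.939 with the ratios computed here, medians between -0.0092 and 0.0036), and the authors' background correction and filter are not given in the sources used here.

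Spot means were corrected for background (normexp, offset 50) with limma 3.58.1 under R 4.3.3, and ratios were normalised by loess within arrays, with control and ignored spots at weight 0. Ratios were turned to log2(aged / young), the 2 dye-swapped arrays of the same extracts were averaged, and the 3 pairs were tested against 0 (lmFit and eBayes, two-sided), with Benjamini-Hochberg adjustment over 20787 kept of 43794 probes. The pairing lies in the arrays, each of which holds both cows of a pair. Ignored negative control spots were left out of the background limit. The replicates are separate cows, and precision is limited by the number of cows. The brightest probe read 46784 units. The probe of highest mean log2 signal stands for a gene. Levels were made by loess and Aquantile normalisation.

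Probes were named by the platform annotation (21790 with 1 symbol, 22004 with none), updated through RefSeq (assembly ARS-UCD2.0) for 982 symbols. The text names all 10 members, at most 4 tested genes per pathway list by smallest p, and fixed markers. It also names the 3 closest profiles of each member that spans at least 1 log2 unit. Other genes were chosen after their values were seen (FOSL1, FOXL2, EGR3, SRF, CREB1, MAPK3, CYP17A1, KDR, ALDH1A1, LUM, AIF1, CD163, SLC4A1, AHSP and NR5A2). The members and lists were chosen with earlier results of these data known. Slide numbers were read from the names of the scans. The fit was tested on simulated data. Alternatives covered pairs left out, blocks for pair and slide, background correction, spot medians, median centring, the authors' values, filters and single dye orientations.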

Additional observations from a re-analysis of the deposited data

Results flagged for a closer look

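In 3 dim probes of these genes the ratio of aged to young had one sign on all 3 arrays with the aged cow in Cy5 and the opposite sign on all 3 with it in Cy3. The difference between the orientations (aged in Cy5 minus aged in Cy3, mean log2 ratio) was 0.25 for the second FOS probe (EMBV3_25127), -0.092 for a FOSB probe (EMBV3_22127) and -1.03 for the second IER2 probe (EMBV3_00480). These differences were not tested. Such opposition by dye occurred in 7.31% of the genes tested, each read by its brightest probe. That share does not cover dim further probes such as these 3. The opposition was seen for none of the brightest probes of the 10 genes.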

How the results depend on the processing

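No member passed the adjusted threshold under any alternative. The number of probes past it was 0 with the replicate block (cow pair as a random block, correlation 0.802) and under all other alternatives but 1, and it was 107 with no replicate block, where dye-swapped arrays count as independent. The number of members at an unadjusted p under 0.05 was 3 with the replicate block, 1 with median centring, and 1 to 4 when 1 pair was left out, where 4 came without the pair of aged cow 13 (JUNB and JUND added) and 1 without the pair of aged cow 110 or 126 (IER2 alone). The mean ratio of EGR1 ran from -0.60 to 0.11 and that of IER3 from -1.02 to 1.29 when 1 pair was left out. IER3 was at 0.22 with the slide as a random block and at 0.12 with median centring, and JUNB at -0.019 from the arrays with the aged cow in Cy5 alone. The cause of these reversals was not tested. FOS was at -0.25 with the aged cow in Cy5 alone, -0.86 with it in Cy3 alone and -0.27 with median centring, and ATF3 at -0.88 with the slide as a random block. FOSB ran from -1.35 with spot medians to -0.27 as the mean over its probes, and IER2 from -1.01 to -0.40. The probes at an unadjusted p under 0.05 numbered 542 without the pair of aged cow 110 and 4963 with no replicate block, against 2172. Counting the ignored control spots in the background limit, an alternative chosen after seeing the data, kept 16241 probes and left 2 members at an unadjusted p under 0.05.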
